A study of Rattus norvegicus with 10 samples.

Results

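The genes described here are 10 of the regulated secretory pathway of neurons: the granins Vgf, Scg2, Scg3, Scg5, Chga and Chgb, the prohormone convertases Pcsk1 and Pcsk2, and the neuronal pentraxins Nptx1 and Nptx2. They were picked by symbol from the deposited expression table, in which each stood on a single locus, and are 10 of 23826 rows left after rows sharing a symbol had been summed. All 10 had a mean of at least 0.5 FPKM (sequenced fragments relative to transcript length and to a measure of library size), the limit for testing, although Pcsk1 passed it narrowly. The libraries held poly-A RNA of the hippocampus of male Sprague-Dawley rats of 200 to 240 g that had received a traumatic brain injury (TBI) by fluid percussion, a pressure pulse of fluid onto the dura, or sham surgery. Both groups, of 5 libraries each, were taken 1 week after surgery and after a learning test. The labels give no age, genotype or other agent. Whether every library came from its own rat is not spelled out there, so the p-values reflect only how far these libraries scatter, which may be partly technical.

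Granins are acidic proteins that aggregate in the trans-Golgi network and help to load peptide hormones, neuropeptides and neurotrophins into dense-core vesicles, and several of them are themselves cut into active peptides. The prohormone convertases make those cuts inside the vesicle, at pairs of basic residues. Neuronal pentraxins are secreted at excitatory synapses, where they bind and cluster AMPA-type glutamate receptors. In the hippocampus Vgf, Scg2 and Nptx2 are known as genes whose transcription follows neuronal activity, and the cyclic AMP response element bound by CREB is the best known control element of Vgf and Scg2.

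The upstream sequences of Vgf, Scg2 and Nptx2 are shown because these are the members known best as activity-induced genes and because they carry this element or its core. RefSeq promoters of the GRCr8 assembly matched 7 of the 10 members, and Chga, Nptx1 and Pcsk1 are named only. The windows cover the 150 bases before the annotated start, all 3 on the minus strand, at chr12:25277021-25277170 for Vgf, chr9:88256867-88257016 for Scg2 and chr12:15162046-15162195 for Nptx2. They are written 5′ to 3′, with every copy of TGACG on either strand in capitals.
Vgf: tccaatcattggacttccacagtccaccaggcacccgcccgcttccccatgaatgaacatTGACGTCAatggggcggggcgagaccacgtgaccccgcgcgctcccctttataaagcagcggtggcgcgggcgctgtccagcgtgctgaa
Scg2: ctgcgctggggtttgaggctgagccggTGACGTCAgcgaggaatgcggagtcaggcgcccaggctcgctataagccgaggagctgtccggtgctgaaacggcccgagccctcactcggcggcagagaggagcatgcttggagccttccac
Nptx2: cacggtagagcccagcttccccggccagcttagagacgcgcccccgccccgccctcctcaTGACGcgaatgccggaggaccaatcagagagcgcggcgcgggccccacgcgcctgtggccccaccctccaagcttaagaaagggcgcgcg
The full palindrome TGACGTCA, which holds TGACG on both strands, lay in the windows of Vgf and Scg2, with its first base at -90 and -123 from the start. It was in 1.45% of the 150-base windows of all 27457 promoters. Nptx2 held the core TGACG alone, at -90. The core was present on one strand or the other in 6 of the 7 matched members (Chgb lacked it) and in 14% of all windows. These are matches of letters and do not show binding, and the deposited values carry no coordinates, so expression was tied to these sequences by gene symbol only.

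The 10 transcripts spanned a wide range of FPKM. FPKM is scaled for transcript length, but levels of different genes also rest on the gene models, which are not given. The pan-neuronal marker Eno2, for one, was at 0.893 to 2.17 FPKM and Snap25 at 843 to 1474 FPKM. How far the gene models set the order of the members was not tested. Scg5, a chaperone of the convertase encoded by Pcsk2, was the most abundant at 378 ± 56.7 FPKM over the 10 libraries (SD), and Chgb followed at 302 ± 81.1 FPKM. A middle group was formed by Nptx1 at 170.3 ± 33.9, Scg3 at 163 ± 15.8 and Scg2 at 158 ± 24.5 FPKM. Their order was not stable, since Nptx1 exceeded Scg3 in 6 of 10 libraries and Scg3 exceeded Scg2 in 7. Chga at 103 ± 56.6 FPKM and Pcsk2 at 85.1 ± 16.9 FPKM also could not be ordered, with Chga higher in 5 of 10 libraries. The same held for Vgf at 38.7 ± 8.26 FPKM and Nptx2 at 37.7 ± 8.16 FPKM, with Vgf higher in 4. Pcsk1 was at 0.513 ± 0.154 FPKM, below every other member in all 10 libraries and with no overlap of ranges. The Pcsk1 locus was thus near the limit of testing, whereas its relative Pcsk2 was among the well measured transcripts.

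**Figure D1:**
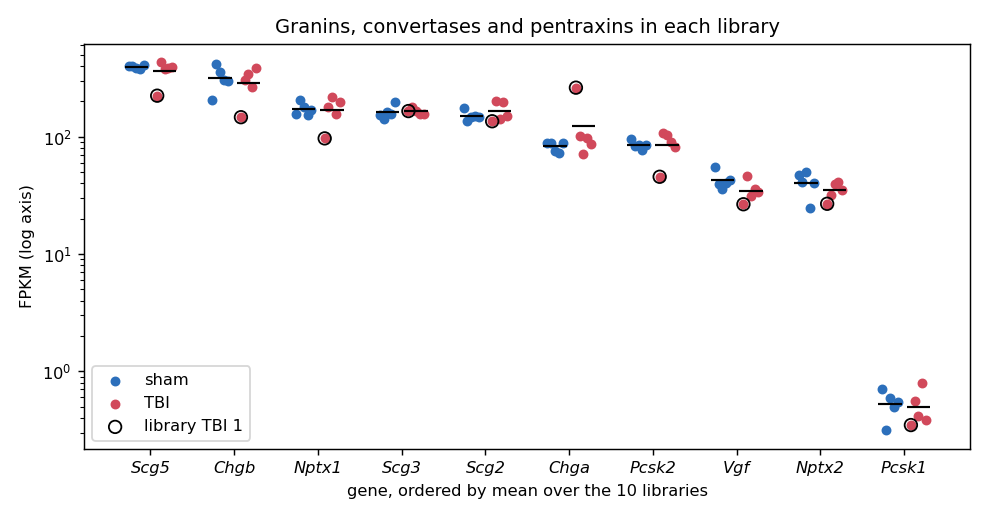
FPKM (log axis) of the 10 genes, ordered by their mean over the 10 libraries, with a point for each library, a bar for the mean of 5 libraries, sham in blue and TBI in red, and a ring around library TBI 1. Sham and TBI points overlap for every gene, and TBI 1 lies below the other injured libraries except for Scg3 and Chga, where Chga reaches 262 FPKM.

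Injured and sham hippocampus were compared to ask whether these transcripts differ 1 week after surgery. None of the 10 had a limma p under 0.05 once adjusted by Benjamini-Hochberg over the 16193 rows tested, of which 0% passed, and the smallest adjusted p of any row was 0.698. Adjusted p of the members lay between 0.983 and 0.994 by limma. At an unadjusted limma p under 0.05 the count was 0 of 10 members, against 2.91% of all rows (1.41% higher and 1.51% lower). No member had groups without overlap, against 0.482% of all rows (0.241% in each direction). On the log2(FPKM + 0.5) scale the means of 7 members were lower and those of 3 higher after TBI, with a median log2 difference of -0.058 beside 0.0013 for all rows, of which 49.6% had a lower mean. By mean FPKM 6 were lower and 4 higher, since Pcsk2 was at 84.6 FPKM in sham and 85.6 FPKM after TBI. All log2 differences are on the scale with the pseudocount. The 95% intervals of the members reached from 0.21 (Scg3) to 0.64 (Chga) log2 units either side of the estimate, so modest changes were not detectable with these libraries.

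**Figure D2:**
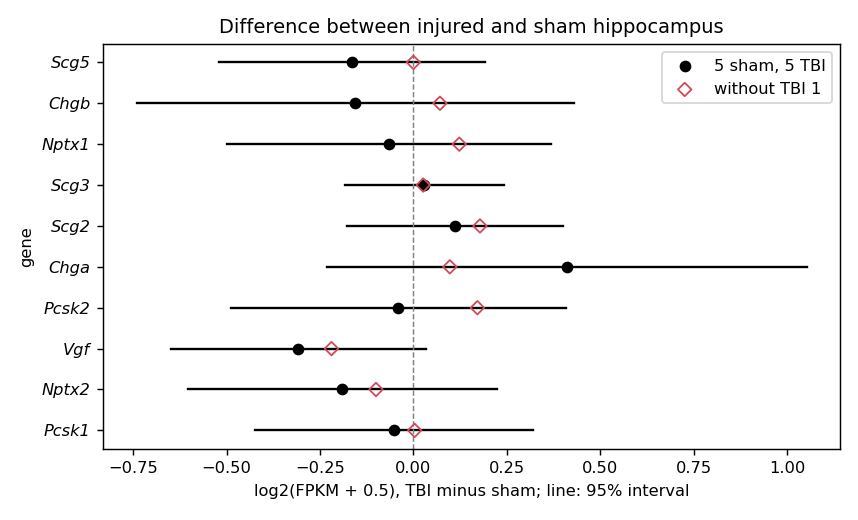
Difference of log2(FPKM + 0.5), TBI minus sham, for each gene, as a dot with its 95% interval from limma with 5 libraries a group, and as an open diamond the estimate without library TBI 1. Every interval crosses 0, and the estimates of Chgb, Nptx1, Pcsk2 and Pcsk1 lie below 0 with TBI 1 and above it without, while Chga moves from 0.41 to 0.097.

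Among the granins that give rise to secreted peptides, Vgf had the smallest p of the 10 genes. Vgf encodes a precursor of neuropeptides that act on synaptic plasticity and energy balance. It was at 55.5, 39.3, 36.1, 40.1 and 42.5 FPKM in sham 1 to 5 and 26.5, 46.6, 30.9, 35.4 and 33.6 FPKM in TBI 1 to 5. Of the injured libraries 4 lay below the lowest sham library, but TBI 2 lay above 4 of the 5 sham libraries, so the groups overlapped. The means were 42.7 ± 7.51 FPKM in sham and 34.6 ± 7.50 FPKM after TBI (SD, n = 5 each). The log2 difference was -0.31 (SE 0.15, 95% interval -0.65 to 0.033), with adjusted p = 0.983 by limma. Over 23 alternative settings and left-out libraries the Vgf difference stayed negative, from -0.42 without TBI 2 to -0.14 with array weights. Changes of the filter, variance trend or row definition and the replicate block cannot move it. Without TBI 2 the limma p was under 0.05 before adjustment (adjusted p = 0.910 by limma), as for 743 of 16193 rows. With a score of meninges markers as covariate it was too (adjusted p = 0.888 by limma), as for 721 of 16193 rows.

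Scg2 encodes secretogranin II, the precursor of secretoneurin. It was at 174, 136, 147, 149 and 148 FPKM in sham 1 to 5 and 135, 203, 142, 196 and 149 FPKM in TBI 1 to 5. TBI 2 and TBI 4 were above every sham library, and the other 3 injured libraries were within or just below the sham range. The log2 difference was 0.11 (SE 0.13, 95% interval -0.18 to 0.40), with adjusted p = 0.983 by limma. Without TBI 2 it was 0.032, without TBI 4 0.044 and without TBI 1 0.18. Vgf and Scg2, both with TGACGTCA upstream, thus had estimates of opposite sign, and neither passed the test.

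Scg3 encodes secretogranin III, which tethers granin aggregates to the vesicle membrane. It was the steadiest member, at 153, 142, 161, 156 and 197 FPKM in sham 1 to 5 and 165, 181, 167, 155 and 155 FPKM in TBI 1 to 5. Its SD over the 10 libraries was 0.13 on the log2 scale, beside a median of 0.19 for the 10076 rows with a mean of at least 5 FPKM. The log2 difference was 0.029 (SE 0.096, 95% interval -0.18 to 0.24), with adjusted p = 0.988 by limma.

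The chromogranins were the most variable members on the log2 scale. Chromogranin B (Chgb), an abundant matrix protein of dense-core vesicles, was at 204, 414, 352, 306 and 297 FPKM in sham 1 to 5 and 146, 307, 344, 263 and 386 FPKM in TBI 1 to 5. TBI 1 was the lowest library and sham 1 the next lowest, while the other 8 libraries ran from 263 to 414 FPKM. Its log2 difference was -0.16 (SE 0.26, 95% interval -0.74 to 0.43), with adjusted p = 0.983 by limma. Chromogranin A (Chga), which drives granule formation in endocrine cells, was at 88.8, 88.1, 75.3, 73.1 and 87.8 FPKM in sham 1 to 5 and 262, 100.4, 70.9, 98.1 and 86.3 FPKM in TBI 1 to 5. A single library, TBI 1, stood 2.61-fold above the highest of the other 9, which lay between 70.9 and 100.4 FPKM. The log2 difference of Chga was 0.41 (SE 0.29, 95% interval -0.23 to 1.05), with adjusted p = 0.983 by limma, and it was 0.097 without TBI 1. The SD over the 10 libraries was 0.54 for Chga and 0.45 for Chgb on the log2 scale, wider than in 94.2% and 91.5% of rows with a mean of at least 5 FPKM.

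Pcsk2 and its chaperone had the same library apart, and Pcsk1 did not. Pcsk2, the main neuronal convertase, was at 94.7, 82.7, 84.9, 76.3 and 84.4 FPKM in sham 1 to 5 and 45.5, 107, 103, 90.4 and 82.1 FPKM in TBI 1 to 5. TBI 1 was below all other libraries, and TBI 2 and TBI 3 were above all sham libraries. The Pcsk2 difference was -0.040 (SE 0.20, 95% interval -0.49 to 0.41) on the log2 scale, with adjusted p = 0.994 by limma, and 0.17 without TBI 1. Scg5, which keeps the Pcsk2 enzyme inactive until it reaches the vesicle, was at 399.5, 404, 386, 378 and 409 FPKM in sham 1 to 5 and 223, 429.6, 375, 385 and 392 FPKM in TBI 1 to 5. The sham libraries differed little, with an SD of 0.047 on the log2 scale, and the injured ones had an SD of 0.37. TBI 1 was the low one, and the other 4 injured libraries lay between 375 and 430 FPKM. The Scg5 log2 difference was -0.16 (SE 0.16, 95% interval -0.52 to 0.19), with adjusted p = 0.983 by limma, and -8.7e-05 without TBI 1. Pcsk1, the convertase of early processing steps, was at 0.702, 0.313, 0.593, 0.494 and 0.546 FPKM in sham 1 to 5 and 0.347, 0.552, 0.415, 0.788 and 0.384 FPKM in TBI 1 to 5. The groups overlapped almost fully, and at this level the estimate of -0.051 (SE 0.17, 95% interval -0.42 to 0.32) says little about the transcript.

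The pentraxins differed in level and in pattern. Nptx1, which is expressed constitutively, was at 154, 204, 177, 153 and 169 FPKM in sham 1 to 5 and 96.6, 178, 216, 156 and 198 FPKM in TBI 1 to 5. TBI 1 was the lowest and TBI 3 the highest of the 10 libraries. The Nptx1 log2 difference was -0.065 (SE 0.20, 95% interval -0.50 to 0.37), with adjusted p = 0.986 by limma, and 0.12 without TBI 1. Nptx2, also known as Narp, the activity-regulated pentraxin, was at 46.99, 40.98, 49.9, 24.7 and 39.9 FPKM in sham 1 to 5 and 26.8, 31.7, 39.4, 41.4 and 35.2 FPKM in TBI 1 to 5. Its lowest library was a sham one, sham 4, and 2 sham libraries lay above every injured one. The Nptx2 log2 difference was -0.19 (SE 0.19, 95% interval -0.60 to 0.22), with adjusted p = 0.983 by limma. Without sham 4 it was -0.36, with a limma p under 0.05 before adjustment and adjusted p = 0.994 by limma. Of 16205 rows tested in that setting 338 had such an unadjusted p.

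**Figure D3:**
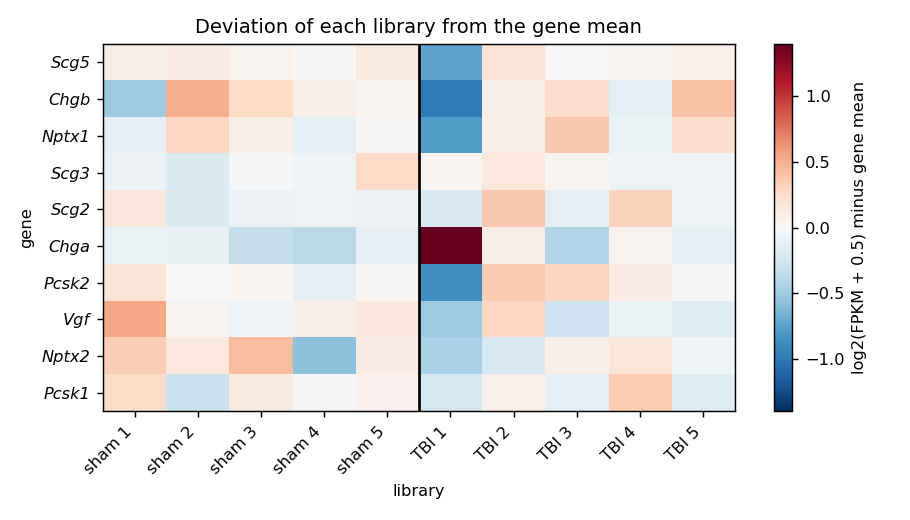
Deviation of each library from the mean of the gene, on the log2(FPKM + 0.5) scale, with genes in rows by falling mean level and libraries in columns, sham left of the line and TBI right of it. TBI 1 is the lowest of the 10 libraries for 6 genes and the highest for Chga, and TBI 2 is the highest for Scg2, Scg5 and Pcsk2.

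Ratios of relatives within a library do not depend on scaling between libraries, and 3 were formed. The ratio of Pcsk1 to Pcsk2 was 0.00741, 0.00378, 0.00698, 0.00647 and 0.00647 in sham 1 to 5 and 0.00764, 0.00515, 0.00404, 0.00872 and 0.00468 in TBI 1 to 5. Its log2 difference, TBI minus sham, was -0.068, with an exact two-sided permutation p = 0.786. The ratio of Nptx2 to Nptx1 was 0.304, 0.200, 0.281, 0.161 and 0.237 in sham 1 to 5 and 0.277, 0.178, 0.182, 0.266 and 0.177 in TBI 1 to 5. Its log2 difference was -0.13 (exact permutation p = 0.571), with all injured values within the sham range, and ran from -0.26 without sham 4 to -0.027 without sham 1. The ratio of Chgb to Chga was 2.29, 4.69, 4.68, 4.20 and 3.38 in sham 1 to 5 and 0.560, 3.06, 4.86, 2.68 and 4.47 in TBI 1 to 5. TBI 1 was the only library with more Chga than Chgb. The log2 difference of this ratio was -0.57 (exact permutation p = 0.476), and -0.027 without TBI 1. Adjusted over the 3 ratios, the exact permutation p was 0.786 for each, and the smallest p that the 252 assignments allow is 0.00794.

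TBI 1 was the lowest of the 10 libraries for 6 members and the highest for Chga, so its values are given beside those of TBI 2 to 5. The SD of log2 values was larger after TBI than in sham for 8 members, and for 7 with TBI 1 left out. The shares of all rows that do the same, or that are lowest in TBI 1, were not computed, so these counts have no background beside them. Of the 10 members 8 were under 80% of the mean of the other 4 injured libraries. The share of all rows under that limit was not computed either. Chgb was at 45.1%, Pcsk2 at 47.6%, Nptx1 at 51.6% and Scg5 at 56.5% of that mean. Vgf, Nptx2 and Scg2 were less far below, at 72.3%, 72.5% and 78.4%. Scg3 was at 100.6% and Chga at 294%.

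Pan-neuronal and excitatory neuron markers were low in TBI 1 as well, and most inhibitory neuron markers were less so. Marker sums of oligodendrocytes, astrocytes and microglia were also below the mean of TBI 2 to 5, at 68.5%, 70.4% and 76.4%. The endothelial sum was at 116%. The sum of 12 pan-neuronal markers was 2281 FPKM in TBI 1, against 3769 to 4431 in the other injured and 3471 to 4732 in the sham libraries. That is 56.7% of the mean of TBI 2 to 5, and the single markers ran from 44.4% to 68.5%. The 7 excitatory neuron markers were at 53.8% by their sum, and all 7 had their lowest value in TBI 1. The 6 matched inhibitory neuron markers were at 77.0% by their sum, in which Pvalb at 46.3% weighed most. Singly they had a median of 89.7%, with Gad1, Gad2, Slc32a1 and Dlx1 at 91.7%, 104%, 97.7% and 87.8%. Lhx6, at 64.5%, was within the range of the single pan-neuronal markers. Group differences with the pan-neuronal score as covariate are given in the last section, and the part of these shifts in the values of the members was not tested. In bulk tissue, fewer cells of a type and less RNA per cell cannot be told apart.

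Per 1000 FPKM of summed pan-neuronal markers, most members of TBI 1 fell in or at the edge of the sham range. Vgf was at 11.6 in TBI 1 and 9.52 to 12.00 in sham, and Scg5 at 97.9 and 84.4 to 115. Chgb was at 64.2 and 43.1 to 100.2, and Nptx1 at 42.3 and 32.6 to 49.5. Pcsk2, at 19.9, was just under its sham range of 20.01 to 23.8. On this scale 3 members were above every other library in TBI 1. They were Scg2 at 59.3, Scg3 at 72.4 and Chga at 115, against sham ranges of 32.98 to 42.97, 32.3 to 55.7 and 18.8 to 24.8.

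The sums of the choroid plexus, meninges and thalamus markers were highest in TBI 1. The 9 matched choroid plexus markers summed to 34158 FPKM there, nearly all of it Ttr, with 32680 FPKM in sham 2 as the next highest. Without Ttr the other 8 summed to 1925 FPKM in TBI 1 and to between 67.9 and 1279 FPKM in the other libraries. The 10 meninges markers summed to 607 FPKM in TBI 1, of which Igf2 made up 445 FPKM, and to between 40.5 and 491 FPKM elsewhere. Only 3 of the 10 had their highest value in TBI 1. Col1a1 and Col3a1, at 30.5 and 15.6 FPKM in TBI 1, were higher in sham 4, at 34.3 and 31.3 FPKM. The 6 thalamus markers summed to 58.1 FPKM in TBI 1 and to between 20.6 and 33.3 FPKM in all other libraries. Of the 6, Tcf7l2, Prkcd, Rora and Calb2 were highest in TBI 1. Lef1, at 3.25 FPKM there, was within its range elsewhere of 2.69 to 5.29 FPKM. Tnnt1, at 4.79 FPKM in TBI 1, was below TBI 5 at 5.31 FPKM. Calb2, also on the list for CA3 and mossy cells, made up 23.8 FPKM of the sum in TBI 1 and was at 18.3 FPKM in TBI 2. Prkcd, a kinase of thalamic relay neurons, was at 17.7 FPKM in TBI 1 and 2.62 to 9.43 FPKM elsewhere. The part of choroid plexus, meninges or thalamic tissue in the Chga value was not tested. Pituitary and chromaffin markers, a list of 6 genes, summed to 1.66 FPKM in TBI 1 and to 1.66 to 3.61 FPKM over all injured libraries, and 5 of the 6 were under 1 FPKM in every library. Gh1 and Prl were listed at 0 in 9 of the 10 libraries, TBI 1 among them.

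**Figure D4:**
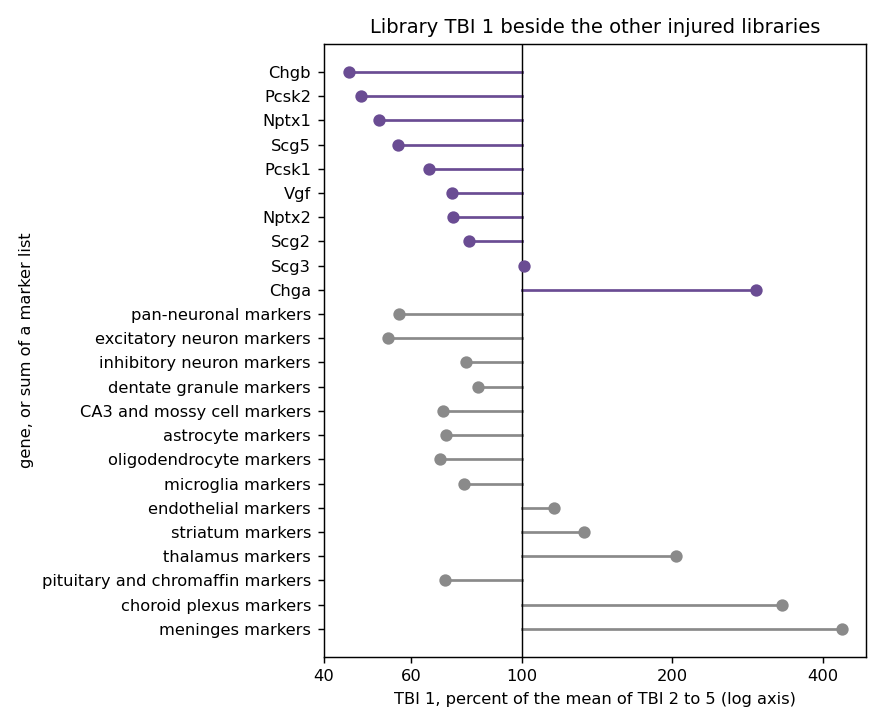
Level in library TBI 1 as a percent of the mean of TBI 2 to 5 (log axis), for each of the 10 genes in purple and for the sum of each marker list in grey, with a line from 100%. Chgb, Pcsk2, Nptx1 and Scg5 lie near the pan-neuronal markers at 56.7%, and Chga is at 294%.

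The other genes of peptide processing also gave no call. Of 14 relatives and processing enzymes 12 were tested, and 0 passed limma's adjusted test in either direction. The means of 7 were higher and of 5 lower after TBI, where 49.6% of all rows had a lower mean. Cpe, carboxypeptidase E, which trims basic residues after the convertases have cut, was the most abundant of those named, at 1324 ± 267 FPKM in sham and 1324 ± 271 FPKM after TBI. Pam, which amidates peptide ends, was at 72.4 ± 9.92 and 65.1 ± 8.69 FPKM, and Furin, the convertase of the Golgi, at 11.2 ± 0.954 and 12.2 ± 2.14 FPKM. Pcsk1n, which encodes the convertase inhibitor proSAAS, was at 3.74 ± 1.26 and 3.98 ± 2.69 FPKM. It was summed over 2 loci and ran from 1.25 to 7.38 FPKM, and its level also rests on gene models that are not given. Qpct, listed under the older symbol RGD1562284, was at 2.07 ± 0.345 and 1.76 ± 0.303 FPKM and makes pyroglutamate ends. All 20 matched genes of dense-core vesicle formation and release were tested, and 0 passed adjustment by limma. The means of 8 were higher and of 12 lower. Without TBI 1 the means of 12 were higher and of 6 lower among the 18 tested, beside 46.3% lower over all rows. Doc2a, a calcium sensor of release, had the smallest p, at 10.4 ± 3.0 and 7.44 ± 2.28 FPKM (adjusted p = 0.983 by limma), and Rab27b, a vesicle GTPase, was at 10.8 ± 1.73 and 9.10 ± 1.35 FPKM. Both had their lowest value in TBI 1.

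The precursors that this pathway processes gave no call. Of 21 neuropeptide and neurotrophin genes tested 15 had a lower and 6 a higher mean, with a median log2 difference of -0.28 and 0 past adjustment by limma, where 49.6% of all rows had a lower mean. Without TBI 1 the counts were 14 lower and 6 higher of the 20 tested, with a median of -0.14, beside 46.3% lower over all rows. Of the list only Avp had an unadjusted limma p under 0.05 (adjusted p = 0.983 by limma), as 2.91% of all rows did. It encodes the vasopressin precursor. Avp was at 1.14 ± 0.593 FPKM in sham and 0.443 ± 0.328 FPKM after TBI, with 0 in TBI 2, and the groups overlapped. Its TBI mean was under the limit of 0.5 FPKM, so its place among the tested rows rests on the sham libraries. Cort, the cortistatin precursor of interneurons, was at 12.4 ± 3.23 and 9.51 ± 2.73 FPKM. Bdnf, a neurotrophin cut by convertases, was at 12.3 ± 1.73 and 11.5 ± 2.47 FPKM. Of this list 8 genes had their lowest value in TBI 1, and the share over all rows was not computed.

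Activity-induced genes, with which Vgf, Scg2 and Nptx2 are usually grouped, gave no call, and of the 3 Scg2 had a positive and the others a negative estimate. Of 29 tested 22 had a lower and 7 a higher mean, with a median log2 difference of -0.11 and 0 past adjustment by limma. Over all rows 49.6% had a lower mean. Without TBI 1 the counts were 16 lower and 13 higher, with a median of -0.021, beside 46.3% lower over all rows. Ier5 and Nr4a2 were the 2 with an unadjusted p under 0.05, both lower and both with adjusted p = 0.983 by limma. Of all rows 2.91% had such an unadjusted limma p, 1.51% with a lower mean. Ier5 was at 17.02, 28.4, 29.03, 35.5 and 29.7 FPKM in sham 1 to 5 and 13.8, 18.7, 20.97, 17.3 and 26.7 FPKM in TBI 1 to 5. All 5 injured libraries were below the sham mean, and sham 1 lay within the range of the injured libraries. Of the list 17 genes had their lowest value in TBI 1, a count without the share over all rows beside it.

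Pentraxin partners and upstream factors gave no call either. Of 10 tested genes of the pentraxin family and its partners 5 had a higher and 5 a lower mean, with 0 past adjustment by limma. A lower mean was found for 49.6% of all rows. Nptxr, the membrane-bound pentraxin that forms complexes with Nptx1 and Nptx2, was at 315 ± 69.5 FPKM in sham and 335 ± 122 FPKM after TBI, with its lowest value, 144 FPKM, in TBI 1 and its highest, 472 FPKM, in TBI 3. These are also the lowest and highest libraries of Nptx1. C1ql2, a secreted synaptic protein of granule cells, was at 79.3 ± 24.1 and 60.2 ± 13.7 FPKM, and the AMPA receptor subunit Gria3 at 59.2 ± 5.35 and 51.4 ± 12.1 FPKM. Of 10 genes for receptors of VGF peptides and factors around CREB 5 had a higher and 5 a lower mean, with 0 past adjustment by limma. Crtc1, a CREB coactivator, was at 42.4 ± 7.13 and 36.7 ± 5.77 FPKM, and Crebbp, a histone acetyltransferase recruited by CREB, at 5.49 ± 0.450 and 4.97 ± 0.457 FPKM.

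For Chga, Chgb and Pcsk2, the 3 members with the widest spread on the log2(FPKM + 0.5) scale, the most similar profiles over the 10 libraries were sought among 7977 other named genes with a mean of at least 5 FPKM, by the root mean square difference of log2 values after subtracting each gene's mean. The pseudocount narrows the spread of Pcsk1, whose SD was 30.04% of its mean FPKM, beside 19.9% for Pcsk2. For Chga the most similar were Hook1 (0.14), Lypla1 (0.16) and Gpx3 (0.16), beside a median of 0.57 over all candidates. Hook1 was at 28.3 FPKM in TBI 1 and 6.83 to 8.57 FPKM in the other libraries, so the likeness rests on that library. For Chgb they were Rimbp2 (0.081), Olfm1 (0.12) and Arhgef25 (0.14), beside a median of 0.44. Rimbp2, a protein of the presynaptic active zone, was low in both TBI 1 (23.5 FPKM) and sham 1 (30.1 FPKM), as Chgb was. For Pcsk2 they were Rab33a (0.059), Adcy3 (0.076) and Syt13 (0.084), beside a median of 0.33. All 3 had their lowest value in TBI 1, at 10.3, 11.3 and 25.3 FPKM.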

How the data were processed

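Poly-A RNA of 10 rat hippocampus libraries was sequenced on an Illumina instrument (per the labels' protocols), and FPKM values were deposited by the authors, each followed by a status word. The submitters' processing notes name Cufflinks, Cuffdiff, TopHat, TopHat2, Bowtie, Bowtie2 and rn5, without saying which did what or in which version. Which gene models were used is not given in the sources used here. Status was OK for all 10 members. The 75th percentiles of the columns were alike and their sums ran from 523239 to 629660 FPKM, which points to scaling across libraries before deposit. Without read depth, counting error could not be computed.

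Groups and library numbers were taken from the titles. Rows sharing a symbol were summed, and unnamed loci or loci with several names were kept as rows. Differences were tested two-sided with limma 3.58.1 (R 4.3.3; eBayes with trend) on log2(FPKM + 0.5) for rows with a mean of at least 0.5 FPKM, adjusted by Benjamini-Hochberg over 16193 rows with a threshold of 0.05. The pseudocount understates changes of low genes such as Pcsk1. The procedure was tested on simulated data. Ratios were compared by exact permutation. The members and lists were chosen with earlier results of these data known.

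Named were all members, of each of 6 pathway lists the 2 tested genes with the smallest p, plus Cpe, Pam, Furin, Pcsk1n, Nptxr and Bdnf, and the 3 genes most like each of the 3 members with the widest spread on the log2 scale. Symbols of 3 list genes were matched through synonyms in a gene table of GRCr8, used for names only. The alternatives changed the pseudocount, filter, scaling, variance model, weights, row definition and covariates, added a replicate block, or left out each library. Of 14 marker lists, those for dentate granule cells, CA3 and mossy cells, astrocytes, oligodendrocytes, microglia, endothelium and striatum enter only the description and plot of library TBI 1. Their sums were, in that order, at 81.5%, 69.3%, 70.4%, 68.5%, 76.4%, 116% and 133% of the mean of TBI 2 to 5.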

Additional observations from a re-analysis of the deposited data

Results flagged for a closer look

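Of 26 groups of 5 values examined (10 genes and 3 ratios, sham and TBI each), 3 held a value whose gap to its nearest neighbour exceeded 0.71 of the range of the group. About 1 group in 20 would do so by chance if its 5 values were independent and normally distributed. The groups share libraries and the ratios reuse member genes, so this rate is only a rough guide here. Scg5 in TBI 1 was at 223 FPKM where the other injured libraries were at 375 to 430 FPKM. Chga reached 262 FPKM in TBI 1, with TBI 2 to 5 between 70.9 and 100.4 FPKM. The ratio of Pcsk1 to Pcsk2 in sham 2 was 0.00378, with the other sham libraries at 0.00647 to 0.00741. That ratio rests on Pcsk1 values of 0.313 to 0.702 FPKM in sham.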

How the results depend on the processing

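No member passed limma's adjusted test in any of 23 alternatives, or in any of the 20 that tested Pcsk1. Over all rows 0 passed except without sham 4, where 2 did (Plac9 and the unnamed XLOC_020489, both outside the members), so that leaving out 1 library gave 0 to 2. Of 227 member estimates 211 kept their sign, and 5 members kept it throughout (Vgf, Scg2, Scg5, Chga and Nptx2). Changing the filter, leaving out the variance trend, keeping every locus as its own row or adding the replicate block cannot move a member's estimate. The signs under those settings were fixed in advance and are included in the 211. With array weights the differences were -0.016 for Scg3, 0.011 for Pcsk1, 0.13 for Pcsk2 and 0.033 for Nptx1. With the choroid plexus score as covariate they were 0.032 for Pcsk1 and 0.085 for Pcsk2. The pan-neuronal score as covariate gave 0.0041 for Pcsk1, 0.14 for Pcsk2 (adjusted p = 0.999 by limma) and 0.070 for Nptx1. The unadjusted limma p of Pcsk2 was under 0.05 with this score, as for 522 of 16193 rows. The other members kept their sign with it, at -0.21 (Vgf), 0.18 (Scg2), 0.025 (Scg3), -0.037 (Scg5), 0.19 (Chga), -0.024 (Chgb) and -0.10 (Nptx2). Leaving out 1 library, Vgf ran from -0.42 to -0.21, Scg2 from 0.032 to 0.18, Scg5 from -0.24 to -8.7e-05, Chga from 0.097 to 0.57, Nptx2 from -0.36 to -0.10, Scg3 from -0.015 to 0.10, Chgb from -0.30 to 0.071, Pcsk1 from -0.13 to 0.0031, Pcsk2 from -0.14 to 0.17, Nptx1 from -0.17 to 0.12 and the log2 ratios of Pcsk1 to Pcsk2 from -0.24 to 0.062, Nptx2 to Nptx1 from -0.26 to -0.027 and Chgb to Chga from -0.81 to -0.027. The cause of these sign changes was not tested. The counts of lower means in the pathway lists without TBI 1 were added after seeing the data. Whether the library numbers pair the samples is not stated in the titles. Residual correlations of same-numbered libraries were -0.10, -0.38, 0.045, -0.10 and 0.31. Those of other pairs ran from -0.37 to 0.40, so the correlations cannot settle it. With the replicate block 0 rows and 0 members passed limma's adjusted test, and the log2 ratios of -0.068, -0.13 and -0.57 had exact sign-flip p of 0.875, 0.562 and 0.25. Depth is unknown, and Pcsk1 near 0.5 FPKM is the member that low signal limits most.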
